A study of Mus musculus with 30 samples.

Results

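Pluripotent mouse lines of different origin were compared with each other gene by gene, to describe which genes differed most among them and which hardly differed. The lines are 12 of the 30 samples of the series, in 2 sets of 6 that the authors normalized separately. For each gene the range, the highest minus the lowest log2 intensity, was taken among the 6 pluripotent samples of set 1 and again among the 6 of set 2. Of 10939 genes measured in both sets, 572 had a range of at least 2 log2 units (4-fold) in both and are called variable, and 63 had a range of at most 0.5 (1.41-fold) in both with every value above the floor and are called constant. No groups of lines are contrasted and no test of a difference was run, because the range itself chose the genes.

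Set 1 held the chemically induced pluripotent stem cell (CiPSC) lines CiPS34 (label VC6TFMP+Z), CiPS50 (VC6F+Z) and CiPS21 (VC6TFDBS+Z), made from mouse embryonic fibroblasts, and MNF CiPS7 (VC6TFS+Z), made from neonatal fibroblasts. With them came OSKM iPS1, an induced line from embryonic fibroblasts that the labels give no chemical treatment, and ESC1, embryonic stem cells of the line R1. Set 2 held MNF CiPS1 (VCT6FMDBR+Z) from neonatal fibroblasts, MAF CiPS3 (VC6TFDM+Z) from adult lung fibroblasts, CiPS45 (FC6+Z) from embryonic fibroblasts and ADSC CiPS2 (VC6TFMPS+Z), together with OSKM iPS2 from embryonic fibroblasts and ESC2, embryonic stem cells of the line TT2. ADSC CiPS2 is named for adipose-derived stem cells, whereas its source field gives adult lung fibroblasts. The letters of the treatment codes are not spelled out in the labels. Each CiPSC sample is 1 line, and the 4 lines of a set differ in treatment code, in starting cell or in both. All pluripotent cells grew on feeder layers of embryonic fibroblasts treated with mitomycin C, so RNA of feeder cells may be present. In such bulk RNA, fewer cells that express a gene and less RNA per cell cannot be told apart. The somatic samples of the same sets were MEF1 (embryonic fibroblasts, set 1) and MNF, MAF and ADSC (neonatal fibroblasts, adult lung fibroblasts and adipose-derived stem cells, set 2), grown without feeders in serum medium. Per the design text each sample of sets 1 and 2 had 3 replicates, but the deposited table has 1 column per sample, so the error between replicates cannot be seen and a range holds both differences between lines and measurement error.

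Embryonic stem cells and induced lines keep themselves undifferentiated through a network of transcription factors that includes Oct4 (Pou5f1), Sox2, Nanog and Esrrb. Some members of this network, Nanog above all, are known to switch between high and low states within a culture, and imprinted genes, germline genes and genes that answer to oxygen and nutrients are other classes known to differ between pluripotent lines. A range among lines collects such differences together with those of clone, genetic background and culture.

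Markers of the labelled cell type could be read in part. Of 10 pluripotency markers 6 were measured in both sets. Nanog, Esrrb, Zfp42, Fgf4 and Utf1 were higher in each of the 12 lines than in each of the 4 somatic samples. Pou5f1 lay between 8.37 and 10.36 in the lines, and the ADSC sample, at 8.77, fell within that span. Of 10 fibroblast markers 1 was measured, the surface protein Thy1, which lay between 6.97 and 10.71 in the lines and between 12.77 and 15.39 in the somatic samples. Markers of other cell types that feeders or stray differentiation could add were also read. Gata4 lay between 7.98 and 9.49, Gata6 between 7.02 and 9.56 and Hand1 between 8.80 and 9.96 in the lines. The somatic samples read 8.49 to 8.63, 10.33 to 12.78 and 8.81 to 9.31 for these genes. Sox17 read at most 7.39 in the lines and at most 6.21 in the somatic samples. The macrophage marker Cd68 lay between 8.57 and 11.51 in the lines and between 7.38 and 12.53 in the somatic samples. Sox2 had values in set 1 alone of these sets, where the 6 lines lay between 13.48 and 14.32 and MEF1 at 8.16. Klf4 had values in set 2 alone of these sets, from 9.70 in OSKM iPS2 to 12.37 in MAF CiPS3.

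The range of a gene in set 1 went with its range in set 2. Median ranges were 1.02 and 1.11 log2 units, and 10.2% of genes reached a range of 2 in set 1 and 13.7% in set 2. The 572 genes that did so in both are 5.23% of the genes measured, 51.5% of those variable in set 1 and 38.2% of those variable in set 2. Across genes, which are not independent replicates, Spearman's coefficient between the ranges was 0.608 over all 10939 and 0.492 over the 8747 genes above the floor in all 12 samples. A range of at least 3 in both sets was found for 71 genes, and of at least 4 for 14. Just inside the limit of 2 stood Olfr645 and Snx20, whose lower ranges were 2.001 and 2.002, and just outside stood Ggct and Acaa1b, at 1.999 and 1.998. The number of variable genes leaned on single lines: without ESC1 it was 345, without CiPS34 389 and without MNF CiPS1 396, and leaving out any other of the 12 samples gave 488 to 534. Whichever sample was left out, 61 of the 572 (10.7%) kept a range of at least 2 in both sets, and each of the others lost the call in at least 1 set without some single sample. With the 4 CiPSC lines of each set alone it was 174.

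**Figure D1:**
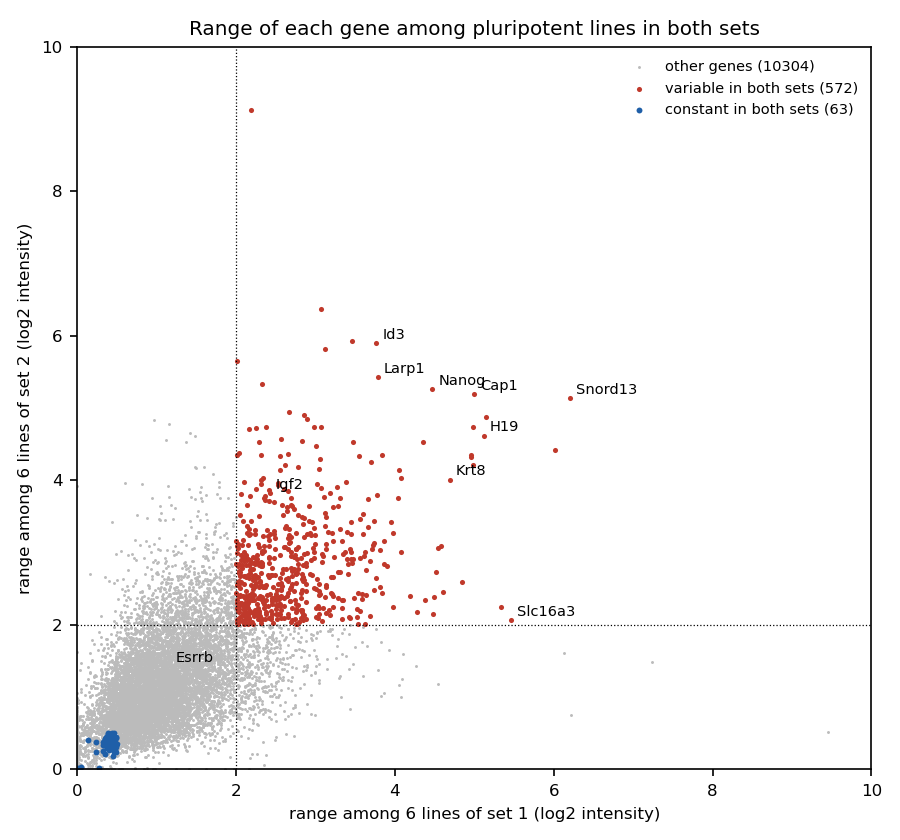
Range of log2 intensity among the 6 pluripotent lines of set 1 (x axis) and of set 2 (y axis), each in log2 units, 1 point per gene, with dotted lines at 2 log2 units. The 572 variable genes are red, the 63 constant genes blue and the rest grey; Snord13, at 6.20 and 5.14, has the largest lower range.

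Variable genes were commonest at middle brightness. Their share was 0.24% of the 2483 genes with a mean level of 6 to 7 and 9.28% of the 2921 with a level of 8 to 10. It was 2.11% of the 1183 with a level of 12 to 14, and 0 of the 172 above 14. The shares of all genes given beside the variable genes and the lists include these dim and bright genes. They were not matched for brightness. Of the 572 genes, 89 had at least 1 value at the floor, so that their range is a lower bound.

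Ranked by the lower of a gene's ranges, the first was Snord13, a small nucleolar RNA that guides acetylation of the small ribosomal RNA. Its log2 level in set 1 was 13.36 in ESC1, 8.74 in MNF CiPS7, 8.50 in OSKM iPS1, 8.39 in CiPS50, 7.65 in CiPS21 and 7.16 in CiPS34. In set 2 it was 11.40 in ADSC CiPS2, 9.73 in ESC2, 7.58 in MNF CiPS1, 7.07 in OSKM iPS2, 6.82 in MAF CiPS3 and 6.26 in CiPS45. In set 1 a single line stood high, and without it the range fell from 6.20 to 1.58, whereas in set 2 the levels were spread more evenly over 5.14 log2 units. Rn7sk, the 7SK RNA that holds back transcription elongation, was also among the first 30, with ranges of 4.96 and 4.35. It was at the floor in CiPS50 and highest in OSKM iPS1, at 10.96, and in set 2 it was highest in ADSC CiPS2, at 10.87.

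Next came genes in which 1 or a few lines had lost or gained most of the signal. Cap1, an actin-regulating protein, read 6.99 in CiPS50 and 7.04 in ADSC CiPS2, and between 11.11 and 12.23 in the other 10 lines. Its ranges of 5.00 and 5.20 rested on those lines: without them they were 0.72 and 1.13. Ipp, a gene named for a promoter from an intracisternal A particle, read 12.93 in CiPS34 and 7.78 to 8.18 in the other 5 lines of set 1. In set 2 its levels fell into a high trio, CiPS45 at 13.05, ESC2 at 12.57 and MNF CiPS1 at 11.79, and a low trio between 8.17 and 9.28. Without CiPS34 the range of Ipp in set 1 was 0.40. Manba, a lysosomal mannosidase, was lowest in ESC1, at 6.65, and in MNF CiPS1, at 7.72, and reached 11.63 in CiPS21 and 12.45 in ESC2.

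The 30 most variable genes thus did not share 1 pattern over the lines. By the lower of the ranges they were, after Snord13, Cap1, Ipp and Manba, H19, Nanog, C130073F10Rik, Snhg14, Rn7sk, Gm4532, Car4, Plagl2, Prmt8, Krt8, 1700097N02Rik, Larp1, Pdlim3, Id3, Olig1, B4galt3, Hemk1, As3mt, Cyb5r1, Cdca8, Smarcd3, Abcf2, Nnmt, Pdzd11, Ntn1 and Lta4h. Their lower ranges ran from 5.14 down to 3.39. With 1 sample left out, 14 of the 30 fell below a range of 2 in at least 1 set. Besides Snord13, Cap1 and Ipp these were Manba (1.959), Cyb5r1 (1.68), Id3 (1.502) and Prmt8 (1.58) in set 1 without ESC1, H19 (1.72) and Pdlim3 (1.72) in set 1 without CiPS34, Car4 (1.49) and Smarcd3 (1.16) in set 2 without MNF CiPS1, and Nnmt (1.41), Olig1 (1.56) and Rn7sk (1.91) in set 2 without ADSC CiPS2. Cyb5r1 and Smarcd3 also fell below 2 in the other set, to 1.47 without MNF CiPS1 and 1.958 without ESC1. With the CiPSC lines alone Larp1 and Abcf2 also fell below 2 in set 1, to 1.54 and 1.72.

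**Figure D2:**
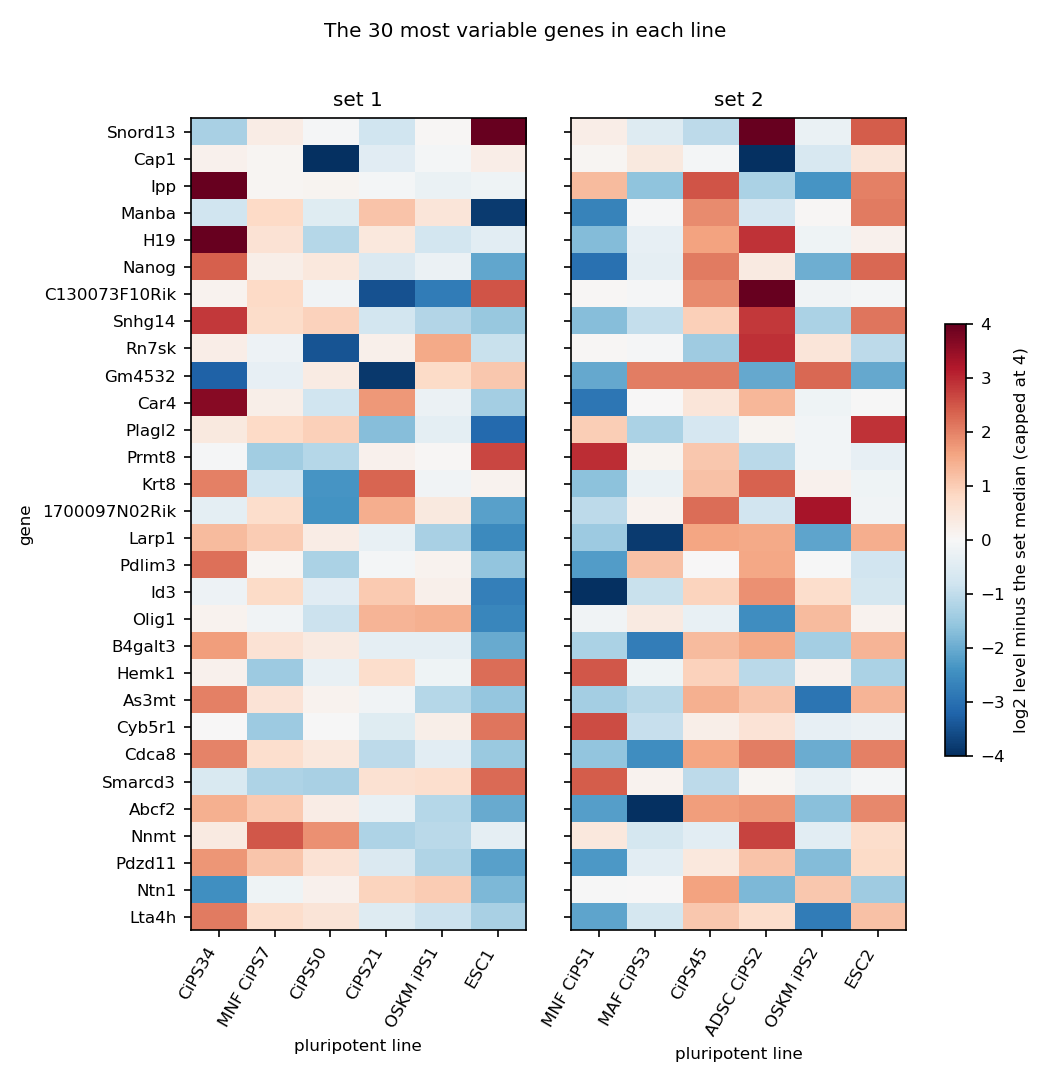
Log2 level of the 30 most variable genes in each line, minus the median of the 6 lines of the set (colour, capped at 4 log2 units), genes in rows from the largest lower range down. ESC1 and CiPS34 hold many of the extreme cells of set 1, and Cap1 stands low in CiPS50 and ADSC CiPS2.

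Some lines stood at the edge more often than others. ESC1 was the highest or the lowest of set 1 in 361 of the 572 variable genes (63.1%, against 43.4% of all genes with a range above 0), and CiPS34 in 279 (48.8%, against 48.3%). In set 2 MNF CiPS1 was at an edge in 306 (53.5%, against 48.6%). Highest minus lowest level chose the variable genes, so a line that stands far out brings in genes where it is at an edge. The shares of variable genes in this paragraph thus follow in part from that choice and are a description alone. A tie for the lowest level, as at the floor, was counted for the tied line listed first. CiPS34 and MNF CiPS1 head their sets, so their shares of all genes are raised and those of later lines lowered. Floor ties do not affect the highest line. CiPS34 was highest in 39.0% of the variable genes (19.6% of all), ESC1 in 26.9% (22.6%) and MNF CiPS1 in 28.8% (24.8%). In set 1 the widest gap between neighbouring levels cut off a single highest line in 206 of the variable genes and a single lowest line in 162, and in set 2 these counts were 171 and 135. Among all 10939 genes, ESC1 stood at least 2 log2 units below the other 5 lines of its set in 14 and above them in 13, MNF CiPS1 below in 5 and above in 23, and ADSC CiPS2 below in 10 and above in 6, whereas MNF CiPS7 and CiPS45 did so in 0. For scale, the leading component over all 10939 genes carried 38.4% of their variance in set 1 and 39.3% in set 2. Its weights in set 1 were 0.59 for CiPS34 and -0.66 for ESC1. In set 2 they were -0.71 for MNF CiPS1 and 0.46 for ADSC CiPS2.

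Among pluripotency genes, the variable ones were a minority that included Nanog. Of 20 measured genes of the core list 5 were variable (Nanog, Nr0b1, Gbx2, Lefty2 and Lefty1), against 5.23% of all genes, and without ESC1 the count was 3. The list's median ranges were 1.37 and 1.52, against 1.02 and 1.11 for all genes, and 14 of the 20 (70.0%, against 39.1% of all genes) had a range of at least 1 in both sets. Nanog read 11.78 in CiPS34, 9.80 in CiPS50, 9.60 in MNF CiPS7, 9.15 in OSKM iPS1, 8.80 in CiPS21 and 7.31 in ESC1. In set 2 it read 12.39 in ESC2, 12.19 in CiPS45, 10.47 in ADSC CiPS2, 9.72 in MAF CiPS3, 8.15 in OSKM iPS2 and 7.12 in MNF CiPS1. These are ranges of 4.47 and 5.26 (22.1-fold and 38.4-fold), with levels spread over the whole span, and the lines with least Nanog lay within 1 log2 unit of the somatic samples, which read 6.35 to 6.72. The embryonic stem cell sample was the lowest of set 1 and the highest of set 2.

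Several other factors of the network had smaller ranges. Esrrb, an orphan nuclear receptor that sustains self-renewal, read at least 13.84 in each line of set 1 and at least 13.60 in each of set 2, with ranges of 1.16 and 1.43, and was at the floor in each somatic sample. Pou5f1 had ranges of 1.22 and 1.14, and Zfp42 (Rex1) of 0.90 and 1.42. Fgf4, the growth factor that primes cells for differentiation, had ranges of 0.62 and 1.14. Nanog and Esrrb did not share an order of lines: MNF CiPS1, with the least Nanog of set 2, read 14.95 for Esrrb, and CiPS34, with the most Nanog of set 1, had the least Esrrb of that set, 13.84.

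Nr0b1 (Dax1), an X-linked nuclear receptor of the same network, was lowest in ESC1, at 9.70, and lay between 11.30 and 12.97 in the other lines of set 1. Its levels in set 2 ran from 10.26 in MNF CiPS1 to 12.99 in CiPS45. Without ESC1 its range in set 1 fell from 3.28 to 1.67, and without MNF CiPS1 that in set 2 from 2.73 to 1.964. Gbx2, a homeobox gene that favours self-renewal, was highest in CiPS21, at 12.22, and OSKM iPS1, at 11.64, and in set 2 it was highest in OSKM iPS2, at 11.76, against 8.99 to 10.55 in the others, among which the range was 1.56. The secreted Nodal inhibitors Lefty1 and Lefty2 had ranges of 2.10 and 2.38 in set 1 and 3.01 and 4.74 in set 2, and without OSKM iPS1 that of Lefty2 in set 1 was 1.37. Over the 6 lines their levels correlated at 0.82 in set 2 and at 0.13 in set 1, values that rest on 6 points each.

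**Figure D3:**
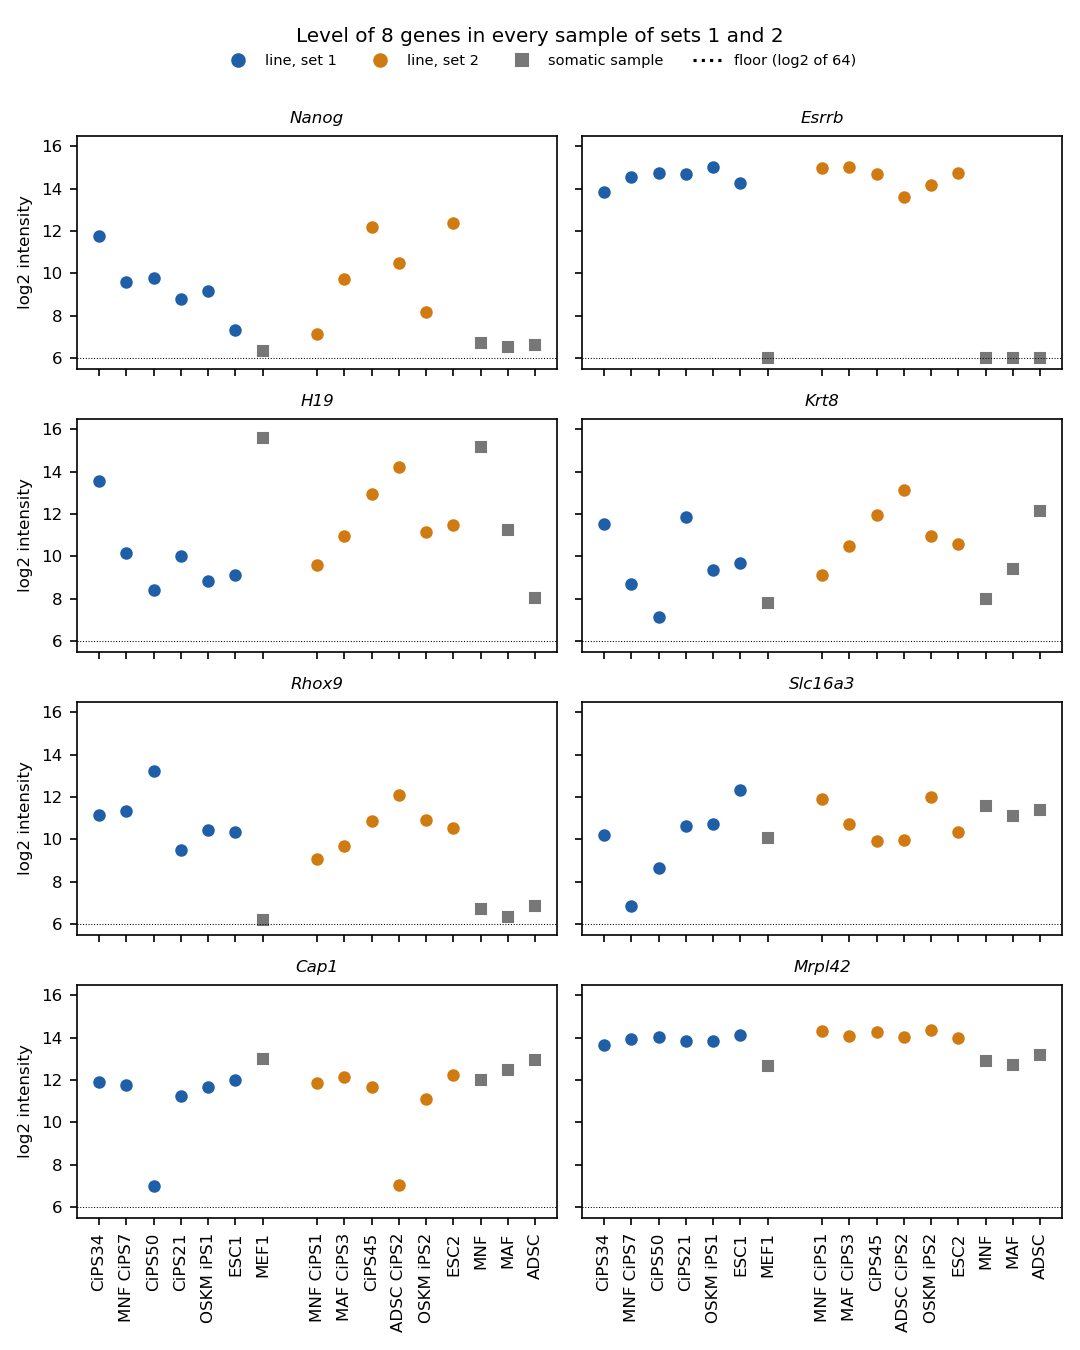
Log2 intensity of 8 genes in every sample of sets 1 and 2 (circles, lines of set 1 in blue and of set 2 in orange; grey squares, somatic samples; dotted line, floor), 1 value per sample with no error available. Nanog spans 7.12 to 12.39 over the lines while Esrrb stays between 13.60 and 15.02, and Cap1 is low in CiPS50 and ADSC CiPS2.

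Some variable genes had levels that went with those of Nanog over the lines. Of the other variable genes 86 (15.1%) correlated with Nanog at 0.8 or more over the 6 lines in both sets, against 1.90% of all genes, and 0 correlated at -0.8 or less, against 78 of all genes. Nanog and the other variable genes were chosen for wide ranges over these same lines, so the shares follow in part from that choice. They are a description alone. The genes most like Nanog were Map7, which binds microtubules (0.96 in both sets), Gatd1 (0.94 and 0.96) and Lta4h, leukotriene A4 hydrolase (0.94 and 0.93). Cct3, a subunit of the chaperonin that folds actin and tubulin, is among the 86. It read 14.24 in CiPS34 and 11.46 in ESC1, and 14.53 in CiPS45 and 11.45 in MNF CiPS1. Without ESC1 its range in set 1 was 1.59, and without MNF CiPS1 that in set 2 was 1.86. Of other subunits of the same chaperonin ring, Cct8 lay between 15.19 and 15.67 in set 1 and between 15.48 and 15.86 in set 2, and Cct7 read 15.98 or more in each line. Both lie close to the top of the scale, where a difference cannot show. Of the 86 genes 6 had a second probe, which had a range of at least 1 in both sets for 5. Second probes did so for 10 of 21 other variable genes and for 39.1% of all 764 genes with one. The exception among the 6 was Idh3a, whose second probe had ranges of 0.43 and 0.58.

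The medians of the 86 genes did not follow the order of Nanog in full. In set 1 they had a median level of 10.70 in CiPS34, 9.70 in MNF CiPS7, 9.33 in CiPS50, 9.05 in CiPS21, 8.79 in OSKM iPS1 and 8.03 in ESC1. In set 2 the median was 10.98 in ESC2, 10.80 in CiPS45, 10.73 in ADSC CiPS2, 10.00 in MAF CiPS3, 8.95 in OSKM iPS2 and 8.54 in MNF CiPS1. The somatic samples, which took no part in choosing the genes, also differed among themselves: 7.46 in MNF against 9.93 in MAF and 9.84 in ADSC, with 8.96 in MEF1. Among the pluripotent samples of set 4, 1.16% of the 86 genes reached a range of 1, against 27.2% of the other variable genes and 7.49% of all genes. In set 3 these shares were 21.4% (18 of 84), 44.6% and 14%, and in set 5 they were 15.1%, 40.0% and 15%. The 86 genes thus lay below all genes in set 4, above them in set 3 and level with them in set 5. Nanog itself had ranges of 0.37 in set 4 and 0.69 in set 5, and no value in set 3.

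Larp1, an RNA-binding protein that controls translation of ribosomal protein messages, and Abcf2, an ATP-binding protein, had the same extremes in set 1 as Nanog but were lowest in MAF CiPS3 in set 2, and so are not among the 86. Larp1 read 10.54 in CiPS34 and 6.75 in ESC1, and in set 2 11.43 in CiPS45 but was at the floor in MAF CiPS3. Abcf2 read 12.16 in CiPS34 and 8.71 in ESC1, and 12.78 in ESC2 against 6.85 in MAF CiPS3. Their ranges in sets 3, 4 and 5 were 0.39, 0.27 and 0.13 for Larp1 and 0.38, 0.33 and 1.07 for Abcf2.

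All the variable genes were then followed into samples that had not chosen them. In set 3 (CiPS WT1 and CiPS WT2, both labelled VC6TFMPS+Z, and ESC3) 41.0% of the 546 variable genes with values reached a range of 1, against 14% of all genes and 2 of 62 constant genes. In set 4 (SKM-FSK1 iPS and SKM-FSK2 iPS, whose treatment is labelled F, and ESC4) the shares were 23.2%, 7.49% and 0 of 62. In set 5 (a CiPSC line labelled VC6TF+Z and ESC5) they were 36.2%, 15% and 2 of 63. With 3, 3 and 2 samples, ranges in these sets are smaller by construction, so the shares are to be read against all genes of the same set. Among the 3 somatic samples of set 2, 72.6% of the variable genes reached a range of 1, against 43.4% of all genes and 11.1% of the constant genes. Of the 30 most variable genes 27 had values in sets 3, 4 and 5, and 6 of these reached a range of 1 in each of the sets while 6 reached it in none.

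**Figure D4:**
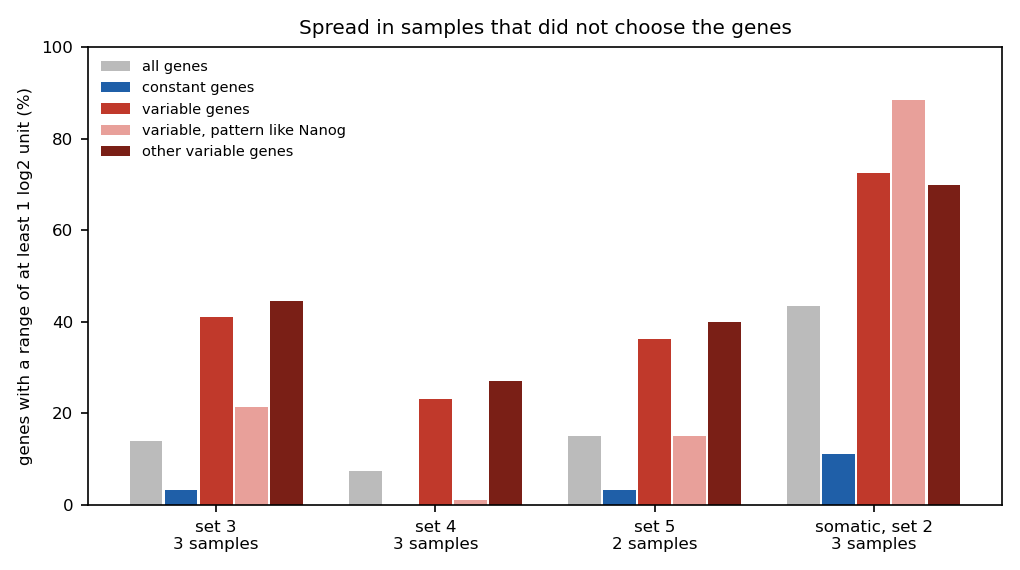
Share of genes with a range of at least 1 log2 unit (y axis, percent) in samples that did not choose the genes: the pluripotent samples of sets 3, 4 and 5 and the somatic samples of set 2 (x axis). Variable genes (red) exceed all genes (grey) in each, constant genes (blue) lie below all genes, and the 86 with a pattern like Nanog (pink; dark red, the other variable genes) reach 1.16% in set 4 and 88.4% among the somatic samples.

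Genes with a second spot on the array gave another reading of the same RNA. Of the 572 variable genes 27 had a second probe, and this probe had a range of at least 1 in both sets for 15 (55.6%), against 39.1% of all 764 second probes. It had a range of at least 2 in both sets for 5 (18.5%, against 6.15%). Probes agreed closely for Asnsd1, whose ranges were 2.05 and 2.67 by one and 2.10 and 2.68 by the other, with correlations of 1.00 over the lines of each set. They disagreed for Idh3a, whose brighter probe had ranges of 2.40 and 2.69 and whose other probe, above the floor in all 12 samples, had 0.43 and 0.58. Of the 20 variable genes whose second probe was above the floor in all 12 samples, 7 correlated above 0.7 with the first probe in both sets and 7 below 0.3 in both. None of the 30 most variable genes had a second probe, so for these the range rests on 1 spot.

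Imprinted genes, which are read from the copy of 1 parent, were often variable: 8 of 24 measured (33.3%), against 5.23% of all genes, and 5 without CiPS34. H19, a maternally expressed RNA, read 13.55 in CiPS34, 10.16 in MNF CiPS7, 10.00 in CiPS21, 9.13 in ESC1, 8.84 in OSKM iPS1 and 8.43 in CiPS50. Among the lines of set 2 it read 14.21 in ADSC CiPS2, 12.93 in CiPS45, 11.48 in ESC2, 11.16 in OSKM iPS2, 10.98 in MAF CiPS3 and 9.59 in MNF CiPS1. MEF1 and MNF, at 15.57 and 15.14, exceeded each line, whereas ADSC read 8.01, below the line that carries its name. Its paternally expressed neighbour Igf2, a growth factor, had its highest levels in the same lines, 10.35 in CiPS34 and 11.69 in ADSC CiPS2, and correlated with H19 at 0.69 in set 1 and 0.90 in set 2 (6 lines each). The RNAs of this pair, made from opposite parental copies, thus had their peaks in the same lines.

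Phlda2, a maternally expressed gene that limits placental growth, was lowest in CiPS50, at 8.64, and ESC1, at 9.77, and reached 12.51 in CiPS21. Its level in set 2 was 9.96 in MNF CiPS1 and 11.07 to 13.13 in the other lines. Plagl1, a paternally expressed zinc finger factor, lay at 10.42 in OSKM iPS1 and at 13.40 to 13.61 in CiPS34, CiPS50 and MNF CiPS7. Peg3 was lowest in ESC1, at 7.53, Mest in MNF CiPS1, at 7.05, and Grb10 was highest in OSKM iPS1, at 12.50, and ESC2, at 12.47, so different imprinted genes set different lines apart. Without ESC1 the range of Peg3 in set 1 was 1.33, and that of Grb10 was 0.67 in set 1 without OSKM iPS1 and 1.20 in set 2 without ESC2. Peg3, Mest and Grb10 were named after their values were seen. Meg3, the maternally expressed RNA of the Dlk1-Dio3 cluster, was at or near the floor in each of the 12 lines (at most 6.87), and MEF1 and MNF read 8.11 and 8.19.

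Germline genes that DNA methylation keeps silent in somatic cells were variable in 4 of 13 (30.8%, against 5.23% of all genes), and in 2 without CiPS50 or without ADSC CiPS2. The X-linked homeobox genes Rhox6 and Rhox9 followed each other at 0.96 in set 1 and 0.92 in set 2. Rhox9 read 13.22 in CiPS50, 11.33 in MNF CiPS7, 11.14 in CiPS34, 10.43 in OSKM iPS1, 10.33 in ESC1 and 9.51 in CiPS21, and in set 2 it ran from 9.07 in MNF CiPS1 to 12.11 in ADSC CiPS2. Without CiPS50 the range of Rhox6 in set 1 was 1.40. The somatic samples read 6.18 to 6.85. Tex11, an X-linked meiosis gene, was highest in ESC1, at 11.18, and lowest in MAF CiPS3, at 7.75, and without these samples its ranges were 1.63 and 1.45. Tex19.2 was likewise highest in ESC1, at 12.24, and lowest in CiPS21, at 8.68. Of 6 measured genes of the cleavage-stage (2-cell) program, 2 were variable (33.3%, against 5.23% of all genes): Tmem92, at the floor in CiPS50 and ESC1 and 10.00 in ADSC CiPS2, and Pramel7, at the floor in CiPS21, OSKM iPS1, MAF CiPS3 and CiPS45 and 10.19 in MNF CiPS7. Without CiPS34 or ADSC CiPS2 the count was 1.

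Genes of the exit from the naive state and of early lineages were variable in 6 of 16 (37.5%, against 5.23% of all genes), and in 3 without ESC1. The keratin Krt8, an early marker of epithelial fate, read 11.84 in CiPS21, 11.52 in CiPS34, 9.67 in ESC1, 9.37 in OSKM iPS1, 8.72 in MNF CiPS7 and 7.15 in CiPS50. Among the lines of set 2 it ran from 9.12 in MNF CiPS1 to 13.13 in ADSC CiPS2, and its range in set 3 was 6.04. Its partner Krt19 correlated with it at 0.92 in set 1 and 0.41 in set 2. Id3 and Id1, targets of BMP signals that help hold cells undifferentiated, had ranges of 3.77 and 2.56 in set 1 and 5.90 and 4.57 in set 2. Id3 was lowest in ESC1, at 8.33, and in MNF CiPS1, at 7.14, and reached 13.04 in ADSC CiPS2. Without ESC1 the range of Id3 in set 1 was 1.502, and without CiPS50 that of Id1 was 1.54, both below the limit. Otx2, a factor of the formative state, was highest in MNF CiPS7, at 9.75, and OSKM iPS2, at 9.97, and lowest in MNF CiPS1, at 6.82, and was at the floor in each somatic sample.

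Genes of glycolysis and of the response to low oxygen gave the largest share of any list, 7 of 17 (41.2%, against 5.23% of all genes), or 4 without MNF CiPS7. When oxygen falls, the factor HIF binds a short core, ACGTG, in the promoters of such genes, while the amino acid response works through ATF4 and CHOP at composite elements of the form TGATGNAA. Promoter sequences from RefSeq (GRCm38.p6), 300 bases from 250 before to 50 after a start, are shown for 2 variable members of each list, printed on the gene's strand with the match in capitals, which may be on either strand. Egln3 lies at chr12:54203825-54204124 (minus strand), Aldoc at chr11:78322823-78323122 (plus strand, the first of 2 starts), Nupr1 at chr7:126625421-126625720 (minus strand) and Chac1 at chr2:119350992-119351291 (plus strand).
Egln3: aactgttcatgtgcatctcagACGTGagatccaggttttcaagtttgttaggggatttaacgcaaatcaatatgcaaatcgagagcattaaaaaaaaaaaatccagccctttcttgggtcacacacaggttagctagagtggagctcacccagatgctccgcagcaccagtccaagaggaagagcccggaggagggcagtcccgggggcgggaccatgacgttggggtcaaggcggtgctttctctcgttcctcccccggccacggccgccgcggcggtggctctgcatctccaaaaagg
Aldoc: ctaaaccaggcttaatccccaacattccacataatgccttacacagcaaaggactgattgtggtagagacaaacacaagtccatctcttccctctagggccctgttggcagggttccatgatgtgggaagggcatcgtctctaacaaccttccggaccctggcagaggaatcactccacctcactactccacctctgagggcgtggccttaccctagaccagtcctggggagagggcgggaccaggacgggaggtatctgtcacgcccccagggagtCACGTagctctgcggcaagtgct
Nupr1: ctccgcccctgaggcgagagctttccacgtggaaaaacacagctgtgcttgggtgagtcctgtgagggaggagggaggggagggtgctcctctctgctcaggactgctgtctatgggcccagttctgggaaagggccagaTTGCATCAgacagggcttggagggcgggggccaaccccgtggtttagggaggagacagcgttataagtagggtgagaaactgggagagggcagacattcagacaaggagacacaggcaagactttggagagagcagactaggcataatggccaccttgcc
Chac1: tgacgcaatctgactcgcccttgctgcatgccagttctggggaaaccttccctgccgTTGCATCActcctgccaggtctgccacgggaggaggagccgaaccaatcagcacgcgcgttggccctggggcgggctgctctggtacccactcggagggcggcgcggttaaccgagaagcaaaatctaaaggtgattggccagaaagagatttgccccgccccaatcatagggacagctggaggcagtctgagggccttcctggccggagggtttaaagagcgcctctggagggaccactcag

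Searched on both strands, ACGTG occurs in 19.7% of 27025 promoters of this length and in 11 of the 16 promoters of the hypoxia list that were found. Of its 6 variable members with a promoter 4 hold it (Aldoc, Slc16a3, Egln3 and P4ha1). TGATGNAA occurs in 4.06% of promoters, in 6 of 15 of the amino acid list, and in 2 of its 4 variable members with a promoter (Chac1 and Nupr1). A match describes the letters of the window and not a bound site, and the E-box CACGTG holds the letters ACGTG.

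Within the hypoxia list MNF CiPS7 was the lowest line of set 1 for 5 of the 7 variable members (71.4%, against 14.5% of all variable genes and 13% of all genes with a range above 0, ties going to the line listed first). Some members were variable only through their low level in this line. Without it the ranges of Egln3 and P4ha1 in set 1 were 1.83 and 1.45. The 71.4% thus follows in part from how the members were chosen and is a description alone. Slc16a3, the lactate exporter MCT4, read 6.86 in MNF CiPS7, 8.64 in CiPS50, 10.22 in CiPS34, 10.65 in CiPS21, 10.73 in OSKM iPS1 and 12.32 in ESC1. Its levels in set 2 lay between 9.92 in CiPS45 and 11.98 in OSKM iPS2. Egln3, an oxygen sensor that marks HIF for decay, read 7.84 in MNF CiPS7 and 9.34 to 11.18 in the others, and in set 2 was highest in OSKM iPS2, at 12.69. Without these samples its ranges were 1.83 and 1.25. Aldoc, an aldolase, was low in both MNF CiPS7, at 9.24, and CiPS50, at 9.41, against 11.69 to 12.34 in the other lines of set 1. In set 2 it was high in MNF CiPS1, at 13.57, and MAF CiPS3, at 13.51, against 11.34 to 12.17. Vegfa, the vascular growth factor, ran from 10.55 in CiPS21 to 13.38 in ESC1 and from 10.76 in CiPS45 to 14.26 in MNF CiPS1, and without CiPS21 its range in set 1 was 1.05. Pkm, the pyruvate kinase of the same pathway, is counted among the constant genes but read 15.95 or more in every line, the top of the scale, where a difference between lines cannot show.

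Genes of the amino acid response were variable in 6 of 18 (33.3%, against 5.23% of all genes), and in 2 without ESC1. Cth, which makes cysteine, read 9.61 in ESC1 and 11.67 to 13.35 in the other lines of set 1, and 10.65 in MNF CiPS1 against 12.26 to 13.78 in the others of set 2. Without ESC1 and without MNF CiPS1 its ranges were 1.67 and 1.52. Slc7a3, an X-linked carrier of arginine and lysine, was also lowest in ESC1, at 10.12, and in set 2 lay at 10.02 in MAF CiPS3 and 10.25 in MNF CiPS1 against 11.34 to 12.96. Nupr1 and Chac1, targets of ATF4 and CHOP in starved cells, followed each other at 0.75 in set 2 and 0.43 in set 1. Nupr1 was lowest in CiPS50, at 9.31, and CiPS45, at 9.23, and highest in MNF CiPS1, at 12.56, and without CiPS50 its range in set 1 was 1.32. Chac1 was lowest in ESC1, at 10.43, and CiPS45, at 10.11, and highest in OSKM iPS1, at 13.40.

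Markers of fibroblasts bear on the feeder cells. Of 17 measured genes of that list 3 were variable (17.6%, against 5.23% of all genes). S100a4, a calcium-binding protein of motile cells, read 8.78 in CiPS50 and 8.69 in ESC1 against at most 6.71 in the other lines of set 1. Among the lines of set 2 it read 10.18 in OSKM iPS2, 9.84 in MAF CiPS3, 7.52 in ADSC CiPS2, 7.47 in CiPS45 and 6.15 in ESC2 and was at the floor in MNF CiPS1, and the somatic samples read 14.07 to 15.02. Igfbp7, a secreted protein, reached 13.98 in MAF CiPS3 and 11.94 in OSKM iPS2 and lay at 8.33 to 11.04 in the other lines of set 2. Its range in set 1 was 2.005, and fell to 1.23 without CiPS34 and to 1.88 without CiPS50. Over the whole list the median level was highest in MAF CiPS3 (9.88), OSKM iPS2 (9.70) and ADSC CiPS2 (9.39) and lay between 8.03 and 8.99 in the other 9 lines, against 13.65 to 14.90 in the somatic samples. Of all the variable genes MEF1 lay above each line of set 1 for 18.9% (27.3% of all genes) and below each for 31.1% (26.4% of all genes). It lay within the lines for 50.0% of the variable, 46.2% of all and 28.6% of the constant genes. These shares depend on the choice of genes, since a wide span among the lines leaves less room outside it. The part of feeder RNA in the ranges was not tested.

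The counts of the other lists are to be read against the 5.23% of all genes that were variable. The p53 targets had 4 variable members of 14 (Gadd45a, Gadd45g, Trp53inp1 and Perp; 28.6%), the interferon response 3 of 17 (17.6%) and the spliceosome 3 of 22 (13.6%). Metallothionein and detoxification genes had 2 of 12 (16.7%) and trophoblast genes 1 of 8 (12.5%). Replication and cell cycle and chromatin, each with 2 of 27 (7.41%), and the respiratory chain, with 1 of 26 (3.85%), lay near the share of all genes. Without CiPS34 or without MNF CiPS7 the p53 count was 2, without CiPS34 or CiPS45 the interferon count was 1, and without ESC1 the spliceosome count was 1. Of the counts of 2, metallothionein was 1 without CiPS34, CiPS50, OSKM iPS1, ESC1, MAF CiPS3 or CiPS45, chromatin 1 without CiPS34, ESC1, MNF CiPS1 or ESC2, and replication 1 without CiPS34 or ADSC CiPS2 and 0 without OSKM iPS1. The trophoblast count was 0 without CiPS34, CiPS50, MNF CiPS1 or OSKM iPS2, and the respiratory count 0 without CiPS34. Ubd, an interferon-induced ubiquitin-like protein, was at the floor in ESC1 and between 10.41 and 11.33 in the other 5 lines of set 1, and in set 2 it ran from 8.99 to 11.24. Its range in set 1 without ESC1 was 0.92. There were 0 variable members among 14 extraembryonic endoderm genes, 11 immediate early and heat shock genes, 10 sterol synthesis genes, 17 cytosolic ribosome genes, 23 proteasome genes, 10 reference genes, 8 X inactivation and escape genes and 2 Y-linked genes.

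The proteasome, the complex that degrades tagged proteins, varied less than the genes as a whole. Of its 23 measured subunits 1 (Psmc5, with ranges of 1.31 and 1.61) had a range of at least 1 in both sets, against 39.1% of all genes, and the list's median ranges were 0.69 and 0.97. Psmb5, which carries the chymotrypsin-like activity, lay between 12.95 and 13.49 in set 1 and between 13.07 and 13.66 in set 2. Median ranges were 1.02 and 1.11 for all genes and 0.94 and 1.06 for genes with a mean level of 12 to 14. The list was not matched for brightness. Of the 27 replication and cell cycle genes 11 had a range of at most 1 in both sets with every value above the floor (40.7%, against 18.4% of all genes). Among them the licensing factor Cdt1 was constant, at 13.17 to 13.50 and 13.53 to 13.86, well above its 10.84 to 11.43 in the somatic samples. Cytosolic ribosome genes were less steady, with 9 of 17 at a range of 1 or more in both sets. Of 10 genes used as references in expression assays, 4 had a range of at most 1 in both sets and 2, B2m and Rplp0, a range of at least 1 in both. Actb (beta-actin) had a range of 0.74 in set 1 but 2.30 in set 2, from 12.33 in MAF CiPS3 to 14.63 in ADSC CiPS2.

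The 63 constant genes are 0.576% of those measured and fell into kinds by brightness. Of these, 33 had a mean level under 8, near the floor, where values differ little, 20 lay between 8 and 14, and 10 lay above 14, close to the top of the scale. Leaving out 1 sample raised the count to between 85 and 120, since fewer samples give smaller ranges. The rise was above 1.5 times without CiPS34, CiPS21, OSKM iPS1, ESC1, MNF CiPS1, MAF CiPS3, OSKM iPS2 or ESC2, and leaving out ESC1 gave the 120. The first 15 by the higher of the ranges were Cct7, Pkm, Atp5mpl, Mt1, Npc1l1, Hpd, Cdt1, Jph1, Mlph, Itgb1bp1, Mrpl13, Aqp7, Trim69, Pde7a and Tnfrsf18. Cct7, Pkm, Atp5mpl and Mt1 read 15.63 or more in each line and 15.11 or more in the somatic samples. Npc1l1, Hpd, Jph1, Mlph, Aqp7, Trim69 and Tnfrsf18, most of them genes of differentiated tissues, had levels of 6.10 to 8.33 in the lines.

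Some constant genes, such as Mrpl13, Mrpl2 and Itgb1bp1, had mean levels between 8 and 14, away from both ends of the scale. Mrpl42, with a mean level of 14.04, is among the 10 above 14. Mrpl13, Mrpl2 and Mrpl42 belong to the large subunit of the mitochondrial ribosome. Mrpl42 read 13.66 in CiPS34, 13.93 in MNF CiPS7, 14.02 in CiPS50, 13.86 in CiPS21, 13.83 in OSKM iPS1 and 14.12 in ESC1, and 13.98 to 14.36 in the lines of set 2, against 12.67 to 13.19 in the somatic samples. Mrpl13 lay between 13.08 and 13.45 in set 1 and between 13.20 and 13.55 in set 2, and Mrpl2 between 13.73 and 14.16 and between 13.56 and 13.94. Itgb1bp1, which binds the tail of integrin beta 1, lay between 10.50 and 10.87 in all 12 lines, and its ranges in sets 3, 4 and 5 were 0.41, 0.35 and 0.48. Mrpl42, Mrpl2 and Cct8 were named after their values were seen.

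The spread was not tied to 1 chromosome, but some lines were shifted as a whole on some chromosomes. For each line and chromosome the median deviation of its genes from their median over the 6 lines was taken, over genes above the floor in all 6 and relative to the autosomes of that line. Chromosome X stood out in set 1 (257 genes): its median was 0.40 in CiPS50 and 0.20 in MNF CiPS7, and -0.21 in CiPS21, -0.18 in OSKM iPS1 and -0.16 in ESC1. In CiPS50, 82.5% of these genes lay above the line's autosomal median. In set 2 the medians of chromosome X lay between -0.09 and 0.05. Xist, the RNA that silences an X chromosome, read at most 6.96 in the 12 lines. Of set 1, CiPS50 had the highest levels of Kdm6a (12.57) and Eif2s3x (13.82), which escape inactivation, and of Rhox6 and Rhox9. Of the 340 genes on chromosome X 26 were variable (7.65%, against 5.23% of all genes), a share like that of chromosome 18 (19 of 245, 7.76%).

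On chromosome 8 (521 and 540 genes) the median was 0.21 in MNF CiPS7 and 0.13 in ESC1, and in set 2 0.16 in ADSC CiPS2 and 0.11 in ESC2, with 74.5, 63.7, 70.6 and 65.2% of the genes above the autosomal median. Chromosome 11 stood at 0.14 in ESC1, chromosome 13 at 0.20 in ADSC CiPS2 and chromosome 6 at 0.12 in ESC2. The other 17 autosomes of set 1 lay between -0.06 and 0.07 in each line, and the other 16 of set 2 between -0.10 and 0.10. These chromosomes were singled out after the values were seen. Because each value is set against the median of the lines, it depends on which lines are in the set: without CiPS45 chromosome 8 stood at 0.04 in ADSC CiPS2 and 0.00 in ESC2, chromosome 13 at 0.10 in ADSC CiPS2 and chromosome 6 at 0.05 in ESC2. Without CiPS34 chromosome 8 stood at 0.06 in ESC1, and without CiPS50 chromosome 11 stood at 0.09 there. Without CiPS21 chromosome X stood at 0.07 in MNF CiPS7 and 0.30 in CiPS50, and without CiPS50 it stood at 0.30 in MNF CiPS7. In either line no left-out sample turned the sign. Gains of whole chromosomes are known in cultured mouse pluripotent cells; copy number was not measured here and its part in these shifts was not tested.

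**Figure D5:**
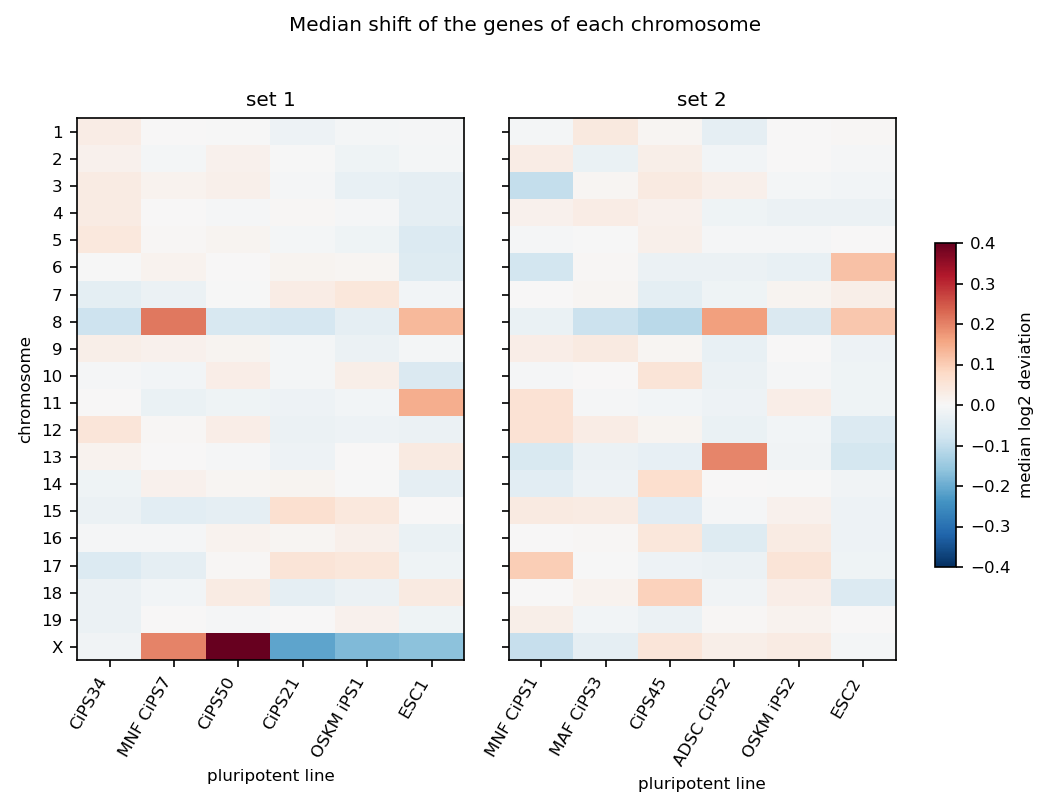
Median log2 deviation of the genes of each chromosome (rows) in each line (columns) from the median of the 6 lines of its set, relative to the line's autosomes (colour, log2 units). Chromosome X in CiPS50 (0.40), chromosome 8 in MNF CiPS7 (0.21) and chromosome 13 in ADSC CiPS2 (0.20) stand out.

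Of Y-linked genes Kdm5d and Uba1y were measured in both sets. Kdm5d was at or near the floor in most lines, with the highest value, 7.16, in ADSC CiPS2, and lay between 7.46 and 8.30 in the somatic samples. Uba1y lay between 6.29 and 7.43 in the lines and between 6.46 and 7.32 in the somatic samples. Uty had values in set 2 alone of these sets, where it read 8.96 in OSKM iPS2 and 8.43 in CiPS45, against 6.39 to 7.06 in the other 4 lines and 9.16 to 9.60 in the somatic samples.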

How the data were processed

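Total RNA (Trizol, then RNeasy) was labelled with Cy5 and hybridised to Phalanx Mouse OneArray v2 arrays, per the labels. The deposited table holds 1 linear intensity per probe and sample, which the authors normalized separately in each of 5 sets; how the arrays were scanned, background-corrected and normalized is not given in the sources used here. The authors' intensities were raised to a floor of 64 and put on the log2 scale, so that 6.00 is the floor. Arrays give no read depth, and their number limits the precision.

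Of 26423 probes 21876 carry 1 gene symbol, 4547 none and 0 several, and 21825 gene IDs matched RefSeq (GRCm38.p6), which gave chromosomes and promoters. Values in both sets were held by 12211 probes, of which 467 had no symbol. For genes with several probes the brightest stood for the gene, which left 10939 genes. Ranges, counts, correlations and medians were computed with Python 3.11.15, pandas 2.3.3, numpy 2.4.6 and scipy 1.17.1 and drawn with matplotlib 3.10.9. The steps were tested on simulated data. The lists (24, with 677 genes) were written from general knowledge. The members and the lists were chosen with earlier results of these data known.

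Genes were named by a rule: the 30 with the largest lower range among the variable genes, the 15 with the smallest higher range among the constant genes, up to 4 variable and 2 constant members of each list, for a list with no variable member up to 2 of its widest, and Pou5f1, Sox2, Nanog, Klf4, Esrrb, Zfp42, Dppa3, Meg3, Xist, Ddx3y, Eif2s3y, Zscan4c, Actb and Gapdh. Of the latter, Dppa3, Ddx3y, Eif2s3y, Zscan4c and Gapdh had no value in both sets. Fgf4, Utf1, Thy1, Lefty1, Krt19, Slc16a3, P4ha1, Chac1, Psmb5, Cct3, Cct8, Map7, Gatd1, Igf2bp1, Asnsd1, Idh3a, Peg3, Mest, Grb10, Mrpl2, Mrpl42, Uty and the genes of the other observations were named outside it, after their values were seen. Alternatives were floors of 32 and 128, quantile normalization and median centring, the mean of a gene's probes, probes without symbols, the SD in place of the range, other limits, genes above the floor alone, the CiPSC lines alone, and each sample left out. Leaving out ESC1 and MNF CiPS1 together, and a limit of 1 for constant genes, were chosen after seeing the data.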

Additional observations from a re-analysis of the deposited data

Results flagged for a closer look

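In each set of 6 lines, the share of the whole range that separates the highest or the lowest line from its nearest neighbour was set against Dixon's critical value for 6 samples, which chance passes in about 1 in 20 groups. With 104 such comparisons on named genes, of which 9 passed, and 40 on chromosome medians, of which 6 passed, several would pass by chance alone. Most of these genes were chosen for a large range among the same 6 values, which that figure for chance does not allow for, so the shares are given as a description and not as a test.

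For Ipp in set 1, CiPS34 stood high by 0.922 of the range. Cap1 was low in CiPS50 by 0.855 of the range in set 1 and in ADSC CiPS2 by 0.783 in set 2. Ubd, the interferon-induced ubiquitin-like protein, was low in ESC1 by 0.827 of the range of set 1. For Snord13 in set 1, ESC1 stood high by 0.745. H19 stood high in CiPS34 by 0.663 of the range of set 1. In set 2, MNF CiPS1 was low for Car4, a membrane carbonic anhydrase, by 0.646 (6.55 against 9.28 to 10.76) and high for Smarcd3, a subunit of the BAF remodelling complex, by 0.663 (9.46 against at most 7.16). Actb in set 2 was low in MAF CiPS3 by 0.630.

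Of the chromosome medians, chromosome 11 stood high in ESC1 by 0.840 and chromosome 6 stood low in ESC1 by 0.734 of the range of set 1, although for chromosome 6 the deviation itself was -0.05. In set 2 chromosome 13 stood high in ADSC CiPS2 by 0.790. Chromosomes 5 and 10 stood high in CiPS45 by 0.738 and 0.689 and chromosome 3 low in MNF CiPS1 by 0.641 of the range of set 2, where the deviations themselves were 0.02, 0.05 and -0.10. Causes were not tested.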

How the results depend on the processing

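No paired analysis was possible because the sets share no line and no test was made. The 572 variable genes numbered 633 with the lower floor, 455 with the higher floor, 555 after quantile normalization, 553 after median centring and 586 by SD, but 4278 with a limit of 1, 71 with a limit of 3, 174 in the CiPSC lines alone and 282 without ESC1 and MNF CiPS1. Leaving out 1 sample gave 345 to 534. The 63 constant genes numbered 111 with the lower floor, 40 with the higher floor, 102 by the mean of a gene's probes, 716 with a limit of 0.75, 2013 with a limit of 1, 476 in the CiPSC lines alone, 224 without ESC1 and MNF CiPS1 and 85 to 120 with 1 sample left out. The agreement of ranges between sets (0.608) was 0.711 with the higher floor, 0.492 above the floor and 0.495 in the CiPSC lines alone. The share of variable genes at a range of 1 in set 3 (41.0%) was 36.2% with the higher floor, 56.4% for genes chosen from the CiPSC lines alone, 49.6% without ESC1 and MNF CiPS1 and 39.3 to 48.2% with 1 sample left out. In set 4 (23.2%) it was 32, 29.3 and 21.3 to 28.0% under the last 3 of these, and in set 5 (36.2%) it was 40.2% in the CiPSC lines alone and 35.0 to 40.6% with 1 sample left out. The share of second probes (55.6%) was 62.96% after quantile normalization and 64% after median centring, and lay between 35.7% (without CiPS34) and 62.5% with 1 sample left out. Of 5840 alternative ranges of named genes 307 moved beyond the limit set for a change. A range cannot be negative, so none of these could reverse. Of 160 chromosome values, which could, 32 moved and 0 reversed. Fewer samples give smaller ranges by construction; for the other changes the cause was not tested. Values near the floor and at the top of the scale hold little room for a range.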

Other observations

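The genes below were picked after their values were seen and are given as values. ADSC CiPS2 was the lowest line of set 2 for 6 of the 14 measured genes of the p53 list. It was the lowest in 16.9% of all genes with a range above 0, where a tie was counted for the tied line listed first. Ccng1 (cyclin G1) read 9.55 there and 12.40 to 14.10 in the other 5 lines. Cdkn1a, the cell cycle inhibitor p21, read 12.03 against 12.75 to 14.29, and Mdm2, the ligase that degrades p53, 10.29 against 11.58 to 12.87. Bbc3 (Puma), which promotes cell death, read 7.25 against 9.19 to 11.02. Other members of the list were not low there: Gadd45g, Cdkn2b and Cdkn1c, at 10.12, 9.88 and 10.62, were the second highest of the 6 lines, and Gadd45a and Gadd45b, at 11.70 and 12.93, the third highest. Eda2r and Psrc1, outside that list, read 8.09 and 7.00 in ADSC CiPS2, at least 2 log2 units below the other lines. Over the 14 genes the median deviation from the lines' median was -0.51 in ADSC CiPS2, -0.62 in ESC2 and 0.67 in MAF CiPS3, which was the highest line for 9 of the 14 (and for 16.2% of all genes). In set 1 CiPS34 was the highest line for 8 of the 14 (and for 19.6% of all genes), with a median of 0.61. A group of 42 small nucleolar and other small noncoding RNAs was counted, which left out the Y RNA Rny1. Of the 42, 4 were variable (Rn7sk, Snora81, Snord13 and Snord16a; 9.52%, against 5.23% of all genes) and 25 had a range of at least 1 in both sets (59.5%, against 39.1%). Rny1 was variable too, with ranges of 3.53 and 2.22. ADSC CiPS2 was the highest line of set 2 for 26 of the 42 (61.9%, against 13.1% of all genes), with a median deviation of 0.72, against -0.18 to 0.11 in the other 11 lines.

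MAF CiPS3 stood at least 2 log2 units below the other lines of set 2 for 9 genes: Eif5a, Zcchc3, Acot8, Hnrnpl, Ppp2r1a, Igf2bp1, Etv4, Cst13 and Atxn7l3. Eif5a, a translation factor found in all cells, was at the floor in MAF CiPS3, between 11.25 and 15.12 in the other lines of set 2 and between 12.98 and 15.17 in set 1. It was also at the floor in MEF1, while MNF read 9.80, MAF 14.02 and ADSC 14.39. Hnrnpl, a splicing regulator, was likewise 9.63 in MAF CiPS3 against 11.88 to 13.39 in the other lines of set 2, and at the floor in MEF1. For 7 of these 9 genes MEF1 lay below each line of set 1 (as it did for 26.4% of all genes), with a median deviation of -4.46 from the median of the lines. The median deviation from the lines of set 2 was -2.09 in MNF, -0.70 in MAF and -0.51 in ADSC, so the fibroblasts of the line's own source were not as low. MEF1 belongs to set 1, which was normalized separately from the set of MAF CiPS3, whereas MNF, MAF and ADSC belong to the same set as that line. No cause was tested.

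Single genes stood far apart in other lines. Slc25a45, a mitochondrial carrier, read 13.46 in CiPS50 and 6.13 to 7.61 in the other 11 lines. Sardh, which breaks down sarcosine, was at the floor in ESC1 and between 11.66 and 12.41 in the other 11 lines.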
